A study of Mus musculus with 9 samples.

Results

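The genes examined here are the DNA replication machinery of mouse embryonic stem (ES) cells: 43 factors that license, open and copy DNA. Members were chosen by name. The deposited gene table lists 33495 genes, and 36 of the 43 symbols equal an entry of its name column; these 36 are called the members. The other 7 (Orc1 to Orc6 and Cdc45) stand in the same table under older names such as Orc1l and Cdc45l, were matched through the table's alternate identifiers, and are counted separately. All 43 had at least 1 CPM (counts scaled to library size) in each of the 9 libraries, so no member was lost to the filter on low counts.

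The series sequenced RNA from RF8, a mouse ES cell line, after transfection with a construct for the L122A form of Nanog, for wild-type Nanog (WT) or for enhanced green fluorescent protein (EGFP). Nanog is a transcription factor of pluripotency, and by the series title L122A is a mutant of its homeodomain, the part that contacts DNA. The cells of every transfection were cultured with 5 µM retinoic acid (RA) and no leukaemia inhibitory factor (LIF), with neither (no-LIF), or with LIF at 1000 units per ml (LIF); LIF sustains ES cell self-renewal and RA induces differentiation. There was 1 library for each of the 9 combinations and no replicate. The labels give for the LIF culture a medium with fetal calf serum and puromycin, a selection drug, and do not state whether the other media kept puromycin, how long each culture lasted, whether a transfectant was 1 clone or a pool, or which species the Nanog constructs came from. The count columns used for the LIF culture bear a culture name found in no label and were assigned by elimination, so each value given for LIF rests on that assignment.

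Total counts ranged from 24166395 to 28714988 per library, and ribosomal RNA took between 15.0% and 23.1% of them. Nanog was read at 259, 195 and 0.873 CPM in L122A, WT and EGFP cells with RA, 130.2, 168 and 291 CPM without LIF and 239.6, 223 and 385 CPM with LIF. With RA both Nanog transfectants were far above EGFP cells, and with LIF both were below them; reads of a construct and of the cells' own gene cannot be told apart. Pou5f1, an ES cell marker, had 70.2, 9.24 and 0.468 CPM in L122A, WT and EGFP cells with RA and 454, 445 and 283 CPM with LIF. The RA-induced set of 10 genes summed to 1162, 1294 and 612.0 CPM in L122A, WT and EGFP cells with RA, against 67.7, 50.8 and 37.0 CPM with LIF.

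Replication begins when the origin recognition complex (Orc1 to Orc6), with Cdc6 and Cdt1, loads the ring of Mcm2 to Mcm7 onto DNA, a step that geminin (Gmnn) blocks. The ring becomes an active helicase when Cdc45 and the GINS complex join it; replication protein A (RPA) then coats the single strands, primase and polymerase α start each strand, and the clamp PCNA, placed by replication factor C (RFC), holds polymerases δ and ε. Most of these genes are transcribed in late G1 and S phase under E2F factors, and ES cells, which have a short G1 phase, are known to express them strongly.

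With LIF, the members spanned a wide range of levels per length. The highest in FPKM (the deposited scale, counts per gene length and library total) was Rpa3, the smallest RPA subunit, at 417, 549 and 301 FPKM in L122A, WT and EGFP cells. Pcna followed at 195, 173 and 213 FPKM, then the GINS subunits Gins2, at 140.5, 148 and 96.3 FPKM, and Gins4, at 111, 130.1 and 104 FPKM. Rpa3 stood above Pcna in every LIF library, whereas the ranges of Gins2 and Gins4 overlapped. At the other end were Pold1, the catalytic subunit of polymerase δ, at 3.77, 2.22 and 3.46 FPKM, Mcm8, an MCM paralogue outside the Mcm2 to Mcm7 ring, at 4.70, 4.80 and 4.72 FPKM, and Pole, the catalytic subunit of polymerase ε, at 4.84, 4.33 and 5.86 FPKM. The Pold1 values lay below all of the others, and those of Mcm8 and Pole overlapped. Subunits of 1 complex were unequal: Pole2, the second subunit of polymerase ε, had 49.95, 62.02 and 51.3 FPKM, and Gins3 had 9.55, 4.09 and 4.12 FPKM against the values above for Gins2 and Gins4. The 6 genes of the Mcm2 to Mcm7 ring lay closer together, from 31.8 (Mcm2) to 74.3 FPKM (Mcm5) as means of the LIF libraries. Fen1, the flap endonuclease, is measured by a feature of only 383 bases in the deposited table and had between 64 and 149 counts per library, so its values are the least precise of the set.

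**Figure D1:**
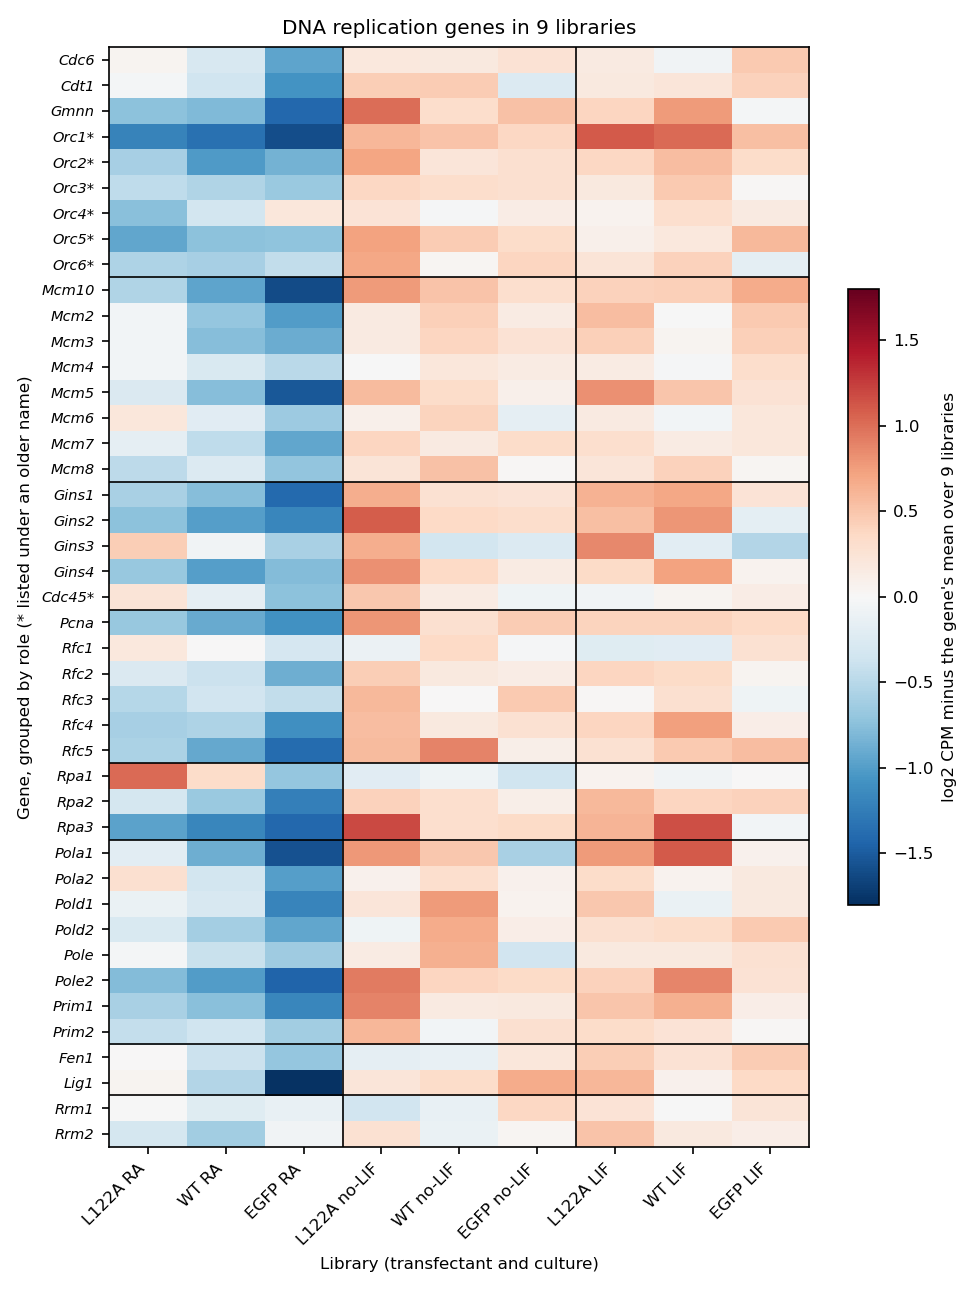
Levels of the 43 replication factors in the 9 libraries, each gene shown as its log2 CPM minus its mean log2 CPM over the 9 libraries, with genes in lines grouped by role and libraries in columns from RA through no-LIF to LIF. The EGFP library with RA is the lowest of the 9 for 32 of the 36 members, and the no-LIF and LIF columns look alike for most genes.

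Replication factors were lower with RA. In the additive model of culture and transfectant, 23 of the 36 members fell with RA against LIF and none rose, at a Benjamini-Hochberg adjusted p below 0.05 in edgeR's quasi-likelihood test; of all 13996 genes tested, 23.8% were called lower and 24.5% higher. The members' median log2 fold change was -0.81, against 0.01 over all genes tested, and 34 of 36 values were below 0. The RA values of 28 members lay wholly below their LIF values, an order that 29.3% of all genes tested also had. In bulk RNA, fewer cells in cycle and less of these RNAs per cell cannot be told apart. Scaled to total counts instead of by trimmed means (TMM), 14 members were called lower and none higher. Of all genes tested, 1945 were then called lower and 4503 higher. That scaling moved the median of all genes to 0.39, and the members' median of -0.43 lay as far below it. The 9 members whose call ended under that scaling were Cdt1, Mcm2, Mcm3, Mcm7, Mcm8, Pold2, Prim2, Rfc2 and Rrm2, and the values of Mcm6, Gins3 and Rrm1, which had not passed, turned to above 0.

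**Figure D2:**
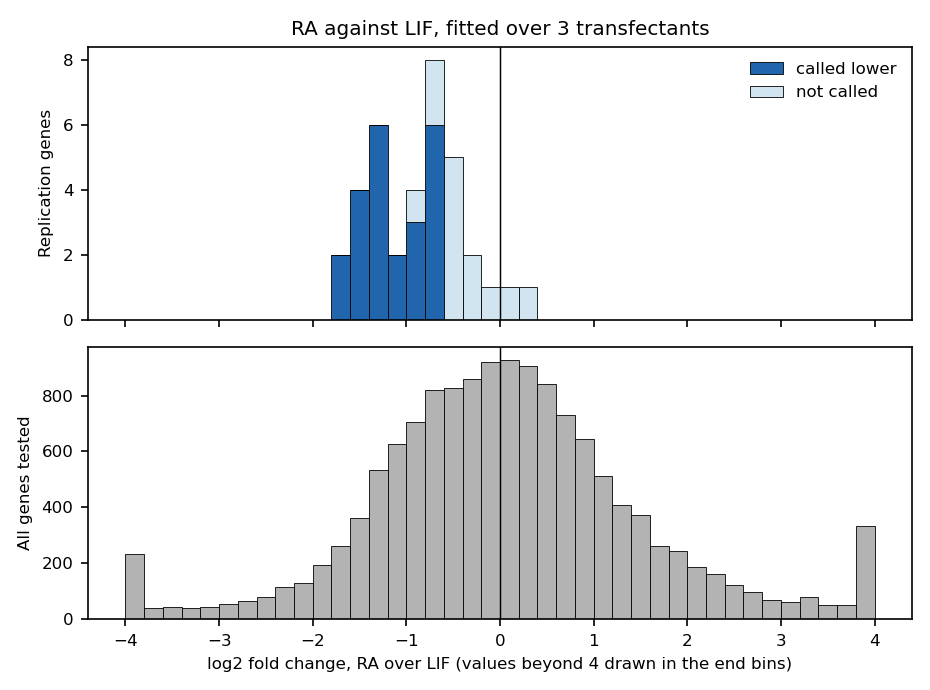
Distribution of log2 fold changes of RA over LIF from the additive model, with all 13996 genes tested beside the 36 members. The members' median is -0.81 and that of all genes 0.01, and the 23 called members all lie below 0.

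Among the members that act in licensing, geminin had the largest fall. Gmnn had 46.3, 44.5 and 28.9 CPM in L122A, WT and EGFP cells with RA, 155, 96.3 and 111 CPM in the same cells without LIF, and 101, 131 and 75.5 CPM with LIF. Every RA value was below every value without RA. Gmnn was 2.58-fold lower (log2 fold change -1.37 ± 0.23 SE, edgeR adjusted p = 0.00233) with RA than with LIF. Cdt1, the loading factor that geminin binds, had 48.5, 38.8 and 23.5 CPM in L122A, WT and EGFP cells with RA, 67.03, 67.8 and 41.6 without LIF, and 56.1, 57.3 and 65.9 with LIF. It was called lower at 1.71-fold (log2 fold change -0.77 ± 0.26 SE, edgeR adjusted p = 0.0356), with no overlap between RA and LIF but with overlap between RA and no-LIF. In the table, the span of Usp10 covers both Cdt1 and Gins2, Usp10 lies on the strand of Cdt1, and how shared reads were counted is not given in the sources used here. Cdc6, an ATPase that acts with ORC, had 48.5, 38.3 and 24.4 CPM in L122A, WT and EGFP cells with RA, 53.4, 53.2 and 56.2 without LIF, and 52.5, 45 and 65.4 with LIF, so the L122A library with RA lay inside the LIF range. Cdc6 did not pass the test (log2 fold change -0.57 ± 0.27 SE, edgeR adjusted p = 0.107).

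The largest fall of the 43 factors was in Orc1, the ORC subunit that in human cells is degraded and rebuilt within each cycle, and which the table lists as Orc1l and places at chr4:108252027-108288633 of build mm9. Orc1 had 31.7, 28.6 and 24.2 CPM in L122A, WT and EGFP cells with RA, 109.6, 104 and 93.9 CPM in the same cells without LIF, and 156, 148 and 106 CPM with LIF. All RA values were below all others, and the transfectants were close to each other with RA. Orc1 was 4.82-fold lower (log2 fold change -2.27 ± 0.17 SE, edgeR adjusted p = 2.01e-04) with RA than with LIF. Orc2, a core ORC subunit, had 90.9, 67.9 and 75.9 CPM in L122A, WT and EGFP cells with RA, 226, 160.3 and 167 without LIF, and 177, 201 and 173 with LIF, and was 2.37-fold lower (log2 fold change -1.25 ± 0.19 SE, edgeR adjusted p = 0.00137) with RA than with LIF. Orc3, Orc5 and Orc6, further ORC subunits, fell 1.72-fold, 2.14-fold and 1.63-fold. Orc4 did not pass the test (log2 fold change -0.45 ± 0.23 SE, edgeR adjusted p = 0.145). Orc4 was at 25.6, 34.4 and 49.5 CPM in L122A, WT and EGFP cells with RA, 51.1, 42.4 and 47.1 without LIF, and 44.9, 52.9 and 48.1 with LIF; its EGFP value with RA was within the LIF range while both Nanog values were below it. Thus 5 of the 7 factors listed under older names fell with RA against LIF.

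Of the 8 MCM genes, 6 fell with RA against LIF: Mcm2, Mcm3, Mcm5 and Mcm7 of the helicase ring, Mcm8, which acts in recombination repair, and Mcm10, which helps start the helicase. Mcm5 had 121.8, 85.8 and 50.6 CPM in L122A, WT and EGFP cells with RA, 218, 183 and 156 CPM in the same cells without LIF, and 258, 206 and 174 CPM with LIF. The ranges with RA and without RA did not overlap. Mcm5 was 2.57-fold lower (log2 fold change -1.36 ± 0.20 SE, edgeR adjusted p = 0.00122) with RA than with LIF. Mcm10 had 43.4, 32.8 and 20.6 CPM in L122A, WT and EGFP cells with RA, 107, 90.3 and 77.9 CPM in the same cells without LIF, and 84.2, 85.1 and 100.3 CPM with LIF. Again no RA value reached a value without RA, and the lowest of all was the EGFP library with RA. Mcm10 was 2.90-fold lower (log2 fold change -1.54 ± 0.25 SE, edgeR adjusted p = 0.00186). Mcm2 had 83.97, 53.9 and 43.3 CPM in L122A, WT and EGFP cells with RA, 97.8, 118 and 96.8 without LIF, and 128, 86.4 and 121 with LIF, with the L122A value with RA just below the lowest LIF value. It was 1.89-fold lower (log2 fold change -0.92 ± 0.25 SE, edgeR adjusted p = 0.0162), a call that ended under total-count scaling and when EGFP LIF, EGFP RA, WT RA or L122A LIF was left out.

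The ring's subunits did not fall alike. Mcm3, Mcm7 and Mcm8 were called at 1.805, 1.65 and 1.62-fold lower, whereas Mcm4 and Mcm6 did not pass the test. Mcm6 had 132, 99.3 and 72.95 CPM in L122A, WT and EGFP cells with RA, 122.1, 152 and 103 CPM in the same cells without LIF, and 129, 110.2 and 131 CPM with LIF. The L122A value with RA was as high as the highest LIF value, and the WT and EGFP values were below all of them. Mcm6 had a log2 fold change of -0.32 ± 0.23 SE (edgeR adjusted p = 0.267), and Mcm4 one of -0.42 ± 0.19 SE (edgeR adjusted p = 0.0998). Mcm4 had 124, 106 and 91.8 CPM in L122A, WT and EGFP cells with RA, 128, 148 and 143 without LIF, and 142, 127 and 159.9 with LIF, with the RA values below all others. Whether the ring genes differ from each other in their response was not tested.

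Of the helicase's GINS partners, Gins1, Gins2 and Gins4 fell and Gins3 did not pass the test. Gins1 had 32.4, 28.4 and 18.4 CPM in L122A, WT and EGFP cells with RA, 76.5, 58.7 and 57.3 CPM in the same cells without LIF, and 74.8, 78.1 and 57.6 CPM with LIF. No RA value reached a value without RA. Gins1 was 2.70-fold lower (log2 fold change -1.43 ± 0.19 SE, edgeR adjusted p = 8.25e-04) with RA than with LIF. Gins2 had 83.99, 70.8 and 62.4 CPM in L122A, WT and EGFP cells with RA, 299, 180.2 and 175 CPM in the same cells without LIF, and 206, 243 and 124 CPM with LIF. Gins2 was likewise separated, with its lowest LIF value in EGFP cells. Gins2 was 2.59-fold lower (log2 fold change -1.37 ± 0.23 SE, edgeR adjusted p = 0.00206), and Gins4 2.30-fold lower (log2 fold change -1.20 ± 0.22 SE, edgeR adjusted p = 0.00323). Gins3 had 14.7, 10.3 and 7.20 CPM in L122A, WT and EGFP cells with RA, 17.04, 8.58 and 9.13 without LIF, and 19.8, 9.46 and 7.50 with LIF; its values followed the transfectant more than the culture, with L122A highest in each culture, and its log2 fold change with RA was -0.12 ± 0.24 SE (edgeR adjusted p = 0.695). Cdc45, the remaining part of the active helicase, had 32.8, 24.9 and 16.8 CPM in L122A, WT and EGFP cells with RA, 39.1, 30.8 and 26.4 without LIF, and 26.8, 28.98 and 30.6 with LIF and did not pass the test (log2 fold change -0.27 ± 0.24 SE, edgeR adjusted p = 0.369).

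The clamp and 3 of the 5 loader subunits fell. Pcna had 239, 205 and 181 CPM in L122A, WT and EGFP cells with RA, 669, 469 and 529 CPM in the same cells without LIF, and 511, 508 and 492 CPM with LIF. The RA libraries were separated from all others. Pcna was 2.44-fold lower (log2 fold change -1.29 ± 0.17 SE, edgeR adjusted p = 8.57e-04) with RA than with LIF. Rfc5 had 77.7, 61.03 and 44.2 CPM in L122A, WT and EGFP cells with RA, 172, 214 and 125 CPM in the same cells without LIF, and 140.5, 160.5 and 171 CPM with LIF. RA values were again the lowest. Rfc5, a small loader subunit, was 2.65-fold lower (log2 fold change -1.41 ± 0.24 SE, edgeR adjusted p = 0.00242), and Rfc4, another, 2.25-fold lower (log2 fold change -1.17 ± 0.20 SE, edgeR adjusted p = 0.00221). Rfc2 was 1.70-fold lower and called. Rfc3 did not pass the test (log2 fold change -0.52 ± 0.21 SE, edgeR adjusted p = 0.0678) although its RA values of 53.9, 60.8 and 56.3 CPM lay below the LIF values of 78.3, 93.6 and 73.2 CPM in L122A, WT and EGFP cells. Rfc1, the large subunit, was at 84.4, 74.4 and 59.9 CPM in L122A, WT and EGFP cells with RA, 68.7, 94.3 and 73.02 without LIF, and 63.5, 64.3 and 89.5 with LIF. Both Nanog transfectants were higher with RA than with LIF and EGFP cells were lower, and the log2 fold change was 0.01 ± 0.23 SE (edgeR adjusted p = 0.975).

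RPA is a complex of 3 subunits, and they did not change together. Rpa3 had 93.5, 80.5 and 68.4 CPM in L122A, WT and EGFP cells with RA, 415, 224 and 231 CPM in the same cells without LIF, and 278, 408 and 176 CPM with LIF. No RA value reached a value without RA. Rpa3 was 3.47-fold lower (log2 fold change -1.79 ± 0.28 SE, edgeR adjusted p = 0.00171) with RA than with LIF, the largest fall of the 36 members; it lies at chr6:8205936-8209113 of mm9, and Rpa1 at chr11:75111667-75161826. Rpa2, the middle subunit, had 51.9, 40.98 and 27.7 CPM in L122A, WT and EGFP cells with RA, 86.7, 79.7 and 69.5 without LIF, and 97.5, 84.9 and 86.6 with LIF. It was 2.29-fold lower (log2 fold change -1.19 ± 0.19 SE, edgeR adjusted p = 0.00179), without overlap. Rpa1 had 504, 314 and 153 CPM in L122A, WT and EGFP cells with RA, 216, 236 and 194 CPM in the same cells without LIF, and 261, 239 and 250.1 CPM with LIF. Rpa1, the large DNA-binding subunit, was highest of all libraries in L122A cells with RA and lowest in EGFP cells with RA. Its log2 fold change over all transfectants was 0.26 ± 0.31 SE (edgeR adjusted p = 0.508); without the EGFP RA library Rpa1 was called higher, and without the L122A RA library its value was -0.14.

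Of the 8 primase and polymerase subunits, 5 fell. Pole2 had 40.3, 34.6 and 25.5 CPM in L122A, WT and EGFP cells with RA, 132, 90.05 and 88.04 CPM in the same cells without LIF, and 91.99, 128 and 83.1 CPM with LIF. The cultures with RA were separated from the rest. Pole2 was 3.05-fold lower (log2 fold change -1.61 ± 0.22 SE, edgeR adjusted p = 9.30e-04) with RA than with LIF. Pola1 had 70.6, 43.5 and 26.96 CPM in L122A, WT and EGFP cells with RA, 137, 112 and 53.7 CPM in the same cells without LIF, and 136, 172 and 84.96 CPM with LIF. Pola1, the catalytic subunit of polymerase α, had no overlap between RA and LIF, but EGFP cells without LIF lay among the RA values. Pola1 was 2.90-fold lower (log2 fold change -1.54 ± 0.22 SE, edgeR adjusted p = 0.00120). Prim1, the catalytic primase subunit, was 2.40-fold lower (log2 fold change -1.26 ± 0.20 SE, edgeR adjusted p = 0.00165), and its partner Prim2 was 1.59-fold lower, as was Pold2, the second subunit of polymerase δ, at 1.94-fold; both were called. The 3 that did not pass were Pola2, the second subunit of polymerase α (log2 fold change -0.51 ± 0.27 SE), Pold1 (-0.72 ± 0.30 SE) and Pole (-0.57 ± 0.24 SE), with edgeR adjusted p of 0.146, 0.0740 and 0.0805. Pole stood at 43.4, 33.7 and 28.4 CPM in L122A, WT and EGFP cells with RA, 49.2, 69.5 and 34.9 without LIF, and 50.3, 50.3 and 53.5 with LIF, and Pold1, at 13.2, 11.7 and 6.26 CPM in L122A, WT and EGFP cells with RA against 20.02, 13.2 and 16.1 CPM with LIF, overlapped between the cultures at the L122A value with RA. Pole did not overlap between RA and LIF.

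Neither gene of Okazaki fragment processing passed the test against LIF. Lig1 had 81.2, 54.1 and 22.9 CPM in L122A, WT and EGFP cells with RA, 90.9, 97.9 and 124 CPM in the same cells without LIF, and 118, 82.4 and 101 CPM with LIF. Lig1, the ligase that joins Okazaki fragments, was lower with RA in each transfectant, and its EGFP value with RA was the lowest by a wide margin. Its log2 fold change was -0.99 ± 0.38 SE (edgeR adjusted p = 0.0594). Fen1, which trims the flaps between fragments, had a log2 fold change of -0.73 ± 0.34 SE (edgeR adjusted p = 0.108). Of ribonucleotide reductase, which makes deoxynucleotides, Rrm2, the small subunit, had 171, 138 and 204 CPM in L122A, WT and EGFP cells with RA, 257, 195 and 219 without LIF, and 303, 241 and 232 with LIF. Rrm2 was 1.52-fold lower (log2 fold change -0.60 ± 0.18 SE, edgeR adjusted p = 0.0257), the smallest called change among the members; the call ended under total-count scaling, in a fit of the RA and LIF libraries alone, and when L122A RA, L122A LIF, WT RA or WT LIF was left out. Rrm1, the large subunit, had 147, 128 and 134 CPM in L122A, WT and EGFP cells with RA against 176, 147 and 173 CPM with LIF, ranges that overlapped (log2 fold change -0.27 ± 0.20 SE, edgeR adjusted p = 0.285).

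**Figure D3:**
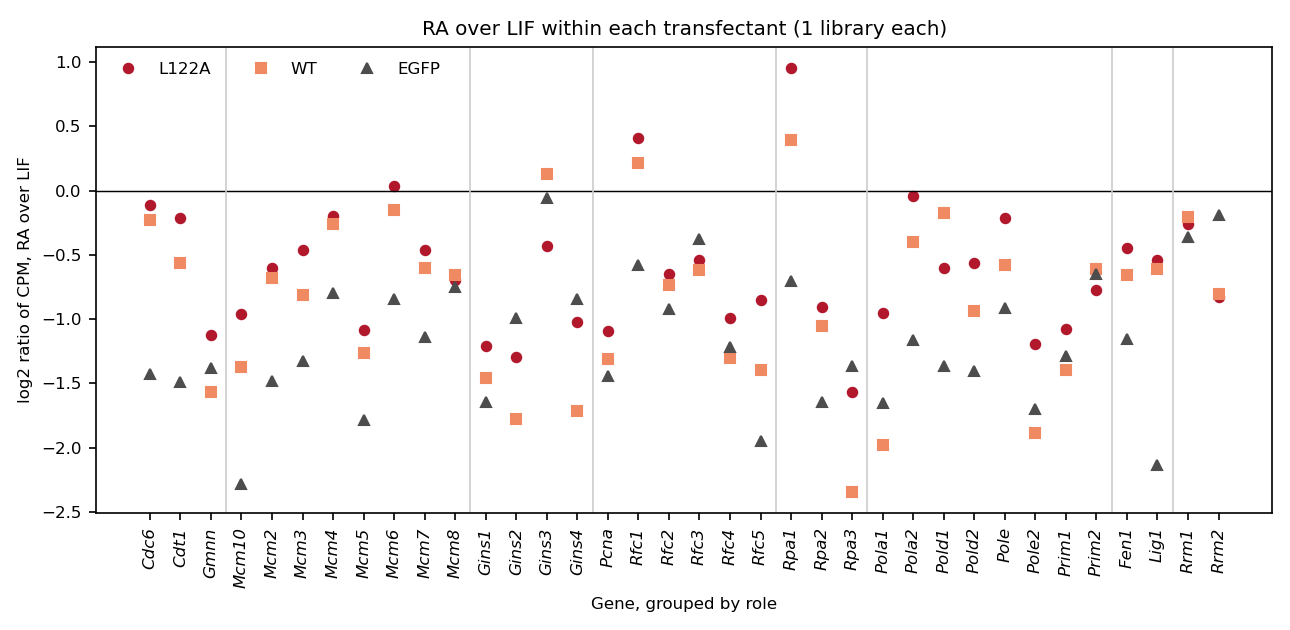
Log2 ratio of CPM with RA over CPM with LIF for each of the 36 members, grouped by role, with 1 point for each of the L122A, WT and EGFP pairs of libraries and no error bars, since each point compares 2 single libraries. Most points lie below 0; the lowest are Rpa3 in WT cells at -2.34 and Mcm10 and Lig1 in EGFP cells at -2.28 and -2.14, and the highest is Rpa1 in L122A cells at 0.95.

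Between the RA culture and the culture without LIF, RA is the only difference that the labels state, but they leave puromycin and duration open. Against the culture without LIF, 24 members fell with RA and none rose. Of all genes tested, 21.9% were called lower and 22.6% higher. The median of the members was -0.83 and that of all genes tested 0.02. This comparison shares its RA libraries with the one against LIF; 21 members were called lower in both. Lig1, Pold1 and Rfc3 passed here and not against LIF, and Cdt1 and Rrm2 the other way round. Rpa3 was 3.54-fold lower (log2 fold change -1.82 ± 0.28 SE, edgeR adjusted p = 0.00184) with RA than without LIF, Pole2 3.11-fold lower (log2 fold change -1.64 ± 0.22 SE, edgeR adjusted p = 0.00107), and Gmnn 3.08-fold lower (log2 fold change -1.62 ± 0.24 SE, edgeR adjusted p = 0.00149). Gins2 was 2.96-fold lower (log2 fold change -1.57 ± 0.23 SE, edgeR adjusted p = 0.00150), Mcm10 2.90-fold lower (log2 fold change -1.54 ± 0.25 SE, edgeR adjusted p = 0.00207), and Rfc5 2.79-fold lower (log2 fold change -1.48 ± 0.24 SE, edgeR adjusted p = 0.00223). Each of these had no overlap between its RA and no-LIF values. Pcna was 2.66-fold lower (log2 fold change -1.41 ± 0.17 SE, edgeR adjusted p = 7.69e-04), Gins1 2.48-fold lower (log2 fold change -1.31 ± 0.19 SE, edgeR adjusted p = 0.00136), Gins4 2.40-fold lower (log2 fold change -1.26 ± 0.22 SE, edgeR adjusted p = 0.00304), Prim1 2.40-fold lower (log2 fold change -1.26 ± 0.20 SE, edgeR adjusted p = 0.00189) and Mcm5 2.26-fold lower (log2 fold change -1.17 ± 0.20 SE, edgeR adjusted p = 0.00246). Smaller were Rfc4 (2.14-fold lower, edgeR adjusted p = 0.00329), Pola1 (2.14-fold lower, edgeR adjusted p = 0.00486), Lig1 (2.13-fold lower, edgeR adjusted p = 0.0483), Rpa2 (2.00-fold lower, edgeR adjusted p = 0.00411) and Mcm2 (1.78-fold lower, edgeR adjusted p = 0.0260). Among the factors under older names, Orc1 was 3.65-fold lower (log2 fold change -1.87 ± 0.17 SE, edgeR adjusted p = 3.63e-04) and Orc5 2.49-fold lower (log2 fold change -1.32 ± 0.21 SE, edgeR adjusted p = 0.00186); 5 of the 7 were called lower. With total-count scaling 13 members were called lower and none higher, beside 1679 of all genes called lower and 4456 higher.

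Loss of LIF alone moved no member past the test. In the culture without LIF against LIF, 0 of 36 members were called by edgeR, 0 had an unadjusted p below 0.05, and DESeq2 called 0; of all genes tested 0.0714% were called, and 1222 had an unadjusted p below 0.05. The members' median log2 fold change was -0.01, with 15 values above 0 and 21 below. The smallest p of the 43 factors belonged to Orc1, with a log2 fold change of -0.40 ± 0.16 SE (edgeR adjusted p = 0.519), and that of the members to Pola1, with -0.44 ± 0.22 SE (edgeR adjusted p = 0.647). Values without LIF did not overlap those with LIF for 2 members, Rpa1 and Fen1, both lower without LIF; 9.73% of all genes tested had such a separation. Summed over the 36 members, the level was 5022, 4248 and 4023 CPM in L122A, WT and EGFP cells without LIF, against 4614, 4641 and 4088 CPM with LIF.

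In WT cells, the change on loss of LIF ran with gene length across the members, a pattern for which no replicate exists. In WT cells without LIF over WT cells with LIF, Spearman's rho between the log2 ratio and the feature length in the table was 0.52 over the 36 members and 0.27 over 13884 genes; the points share 2 libraries, so this is a description. The median log2 ratio was -0.17 over the 19 members shorter than 3000 bases and 0.11 over the 17 longer ones. Rpa3, a short gene, had 224 CPM in WT cells without LIF against 408 CPM with LIF, and Gins2 had 180.2 against 243 CPM. Among long genes, Rfc1 had 94.3 CPM in WT cells without LIF against 64.3 CPM with LIF, and Pole had 69.5 against 50.3 CPM; Pola1, also long, was lower, at 112 against 172 CPM. In L122A cells the rho was -0.20 over the members and -0.07 over 13834 genes, and the medians of the shorter and longer members were 0.03 and 0.01; Rpa3 was higher there, with 415 CPM without LIF against 278 CPM with LIF, whereas Pold2, also short, was lower, at 58.1 against 75.2 CPM. In EGFP cells it was -0.46 over the members and -0.05 over 13935 genes. For RA over LIF the rho was 0.42, 0.41 and -0.04 over the members in L122A, WT and EGFP cells, and 0.43, 0.40 and 0.27 over all genes in the same cells. The members' values thus ran with length much as those of all genes did in L122A and WT cells, but not in EGFP cells; the part of length in the results was not tested.

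**Figure D4:**
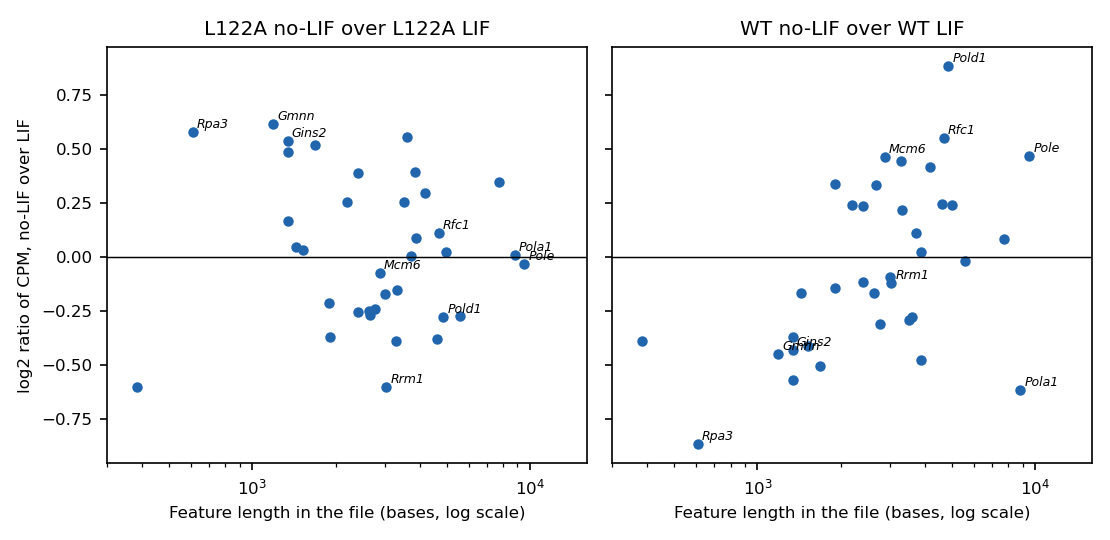
Log2 ratio of CPM without LIF over with LIF plotted against feature length in bases (log axis) for the 36 members, in L122A cells on the left and WT cells on the right. In WT cells the short genes Rpa3 and Gins2 lie below 0, and of the long genes Rfc1 and Pole lie above it and Pola1 below (rho 0.52), whereas in L122A cells the rho is -0.20.

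The response to RA was larger in EGFP cells than in either Nanog transfectant as a description of single libraries, but no member passed the test of that difference. With RA over LIF, the members' median log2 ratio of CPM was -0.63, -0.71 and -1.25 in L122A, WT and EGFP cells, and 20, 25 and 31 of the 36 were at least 1.5-fold lower, a size that 30.7%, 34.1% and 30.8% of all genes measured in those pairs also reached downwards. For 24 members the log2 ratio of RA over LIF was higher in both Nanog transfectants than in EGFP cells, an order that 39.8% of all genes tested had. This order counts rises as well as smaller falls, and Rpa1 and Rfc1 rose in both Nanog transfectants. The test of the Nanog class (L122A and WT) against EGFP called 0 of 36 members in edgeR; 6 had an unadjusted p below 0.05, DESeq2 called 0, and 0.00714% of all genes tested were called, with 1554 at an unadjusted p below 0.05; the 1 gene called was Nanog. The smallest p was that of Lig1, where the log2 RA response of the Nanog class exceeded that of EGFP by 1.57 ± 0.46 SE (edgeR adjusted p = 0.323); Lig1 and Rpa1 were called when genes with low counts were kept in the fit. Lig1 was 1.45-fold, 1.52-fold and 4.40-fold lower with RA than with LIF in L122A, WT and EGFP cells. Cdc6 was 1.08-fold, 1.18-fold and 2.69-fold lower in the same cells, and Mcm10 was 1.94-fold, 2.60-fold and 4.87-fold lower. Rrm2 ran the other way, at 1.78-fold, 1.74-fold and 1.14-fold lower. Rpa3, Gins2, Gins4 and Rfc3 also fell more in both Nanog transfectants than in EGFP cells. Rpa3 was 5.07-fold lower in WT cells against 2.58-fold lower in EGFP cells. Gmnn, Gins3, Rfc4, Prim1, Prim2, Pola1 and Pole2 fell more than in EGFP cells in L122A or WT cells, but not in both. By total counts 8, 13 and 30 members were at least 1.5-fold lower, and the members' medians were -0.17, -0.13 and -1.15, beside all-gene medians of 0.45, 0.58 and 0.11. The share of all genes that much lower was not computed by total counts.

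Within the RA culture, most members followed the order L122A above WT above EGFP. That order held for 29 of 36 members (all but Mcm8, Gins4, Rfc3, Rfc4, Prim2, Rrm1 and Rrm2) and for 25.2% of all genes tested; EGFP cells with RA were the lowest of the 9 libraries for 32 members and for 18.9% of all genes. Each library is 1 culture, so these are values without a test, and their intervals cover counting error only. In L122A over EGFP cells the median ratio was 1.61, with 24 of 36 members at least 1.5-fold higher and none that much lower (20.3% of all genes were that much higher). In WT over EGFP cells 11 members were that much higher (15.9% of all genes), and in L122A over WT cells 6 (11.7%). By total counts 29, 18 and 6 members were that much higher in L122A over EGFP, WT over EGFP and L122A over WT cells. The share of all genes was not computed by total counts. Lig1 was 3.55-fold higher in L122A than in EGFP cells with RA (95% Poisson interval 3.27 to 3.86) and 2.36-fold higher in WT than in EGFP cells (2.17 to 2.58). Rpa1 was 3.29-fold higher in L122A (3.19 to 3.40) and 2.05-fold higher in WT than in EGFP cells (1.98 to 2.12). No other member had a larger ratio in either pair. Pola1 was 2.62-fold higher in L122A (2.42 to 2.83) and 1.61-fold higher in WT than in EGFP cells (1.48 to 1.76). At the low end Rrm2 had a ratio of 0.838 in L122A over EGFP cells (0.809 to 0.868) and of 0.679 in WT over EGFP cells (0.653 to 0.705). Of the 7 factors under older names, 3 followed the order; Orc1 did, with ratios of 1.31 and 1.18 over EGFP cells in L122A and WT, whereas Orc4 had ratios of 0.516 and 0.694. The 36 members summed to 3093, 2417 and 1910 CPM in L122A, WT and EGFP cells with RA.

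**Figure D5:**
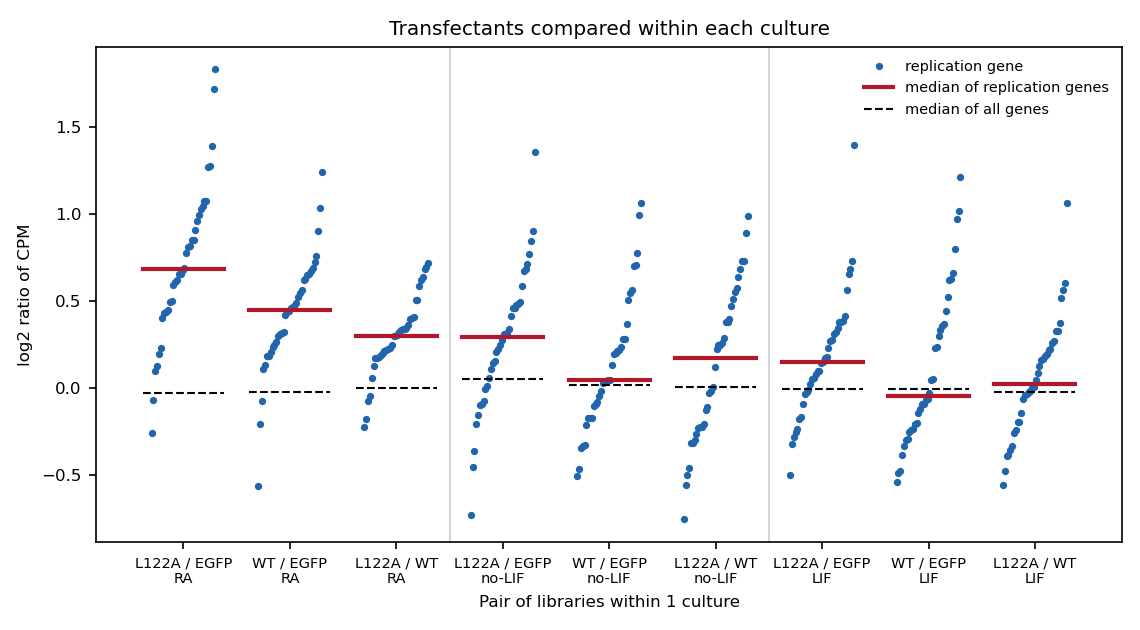
Log2 ratios of CPM for the 36 members between transfectants (L122A over EGFP, WT over EGFP, L122A over WT) in each culture, with a line at each median. With RA the medians are 0.68, 0.45 and 0.30, and in the cultures without RA they lie between -0.05 and 0.29.

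Markers of cell states also differed among the RA libraries. The 10 ES cell markers summed to 836, 316 and 18.5 CPM in L122A, WT and EGFP cells with RA, against 4055, 5595 and 3599 CPM with LIF; without Nanog, the transfected gene, the other 9 summed to 577, 120.6 and 17.6 CPM with RA. The 10 fibroblast markers ran in reverse, at 337.5, 664 and 4822 CPM with RA against 52.5, 52.9 and 293.8 CPM with LIF; in EGFP cells with RA most of that sum was Acta2, at 3611 CPM, while Lum had no count in any RA library. The 10 extraembryonic endoderm markers summed to 243.9, 813 and 427 CPM with RA, and the 7 neural markers to 52.9, 65.8 and 213.5 CPM, with Sox1 and Neurog1 at or near 0. The 20 mitosis genes summed to 3536, 2714 and 1825 CPM in L122A, WT and EGFP cells with RA, against 4600, 4602 and 4175 CPM with LIF. Over all transfectants, 8 of 10 ES cell markers fell with RA against LIF (Tdgf1 most, 213-fold), and 7 of 8 tested fibroblast markers (Col3a1 most), 9 of 10 endoderm markers (Foxa2 most), 2 of 4 tested neural markers (Nes most) and all 10 RA-induced genes (Cyp26a1 most) rose, beside 23.8% of all genes called lower and 24.5% higher. Thy1, the remaining tested fibroblast marker, did not pass the test and was lower with RA in L122A and WT cells. It had 0.421, 0.188 and 1.96 CPM in L122A, WT and EGFP cells with RA against 11.7, 4.09 and 1.37 CPM with LIF. The remaining endoderm marker, Amn, fell 2.90-fold, at levels of at most 1.82 CPM. The neural marker Tubb3, which did not pass the test, had 3.03, 2.38 and 15.0 CPM in L122A, WT and EGFP cells with RA against 30.1, 26.7 and 20.8 CPM with LIF. Fibroblast markers also separated the transfectants, 6 of 8 being called lower in L122A and 2 of 8 in WT than in EGFP cells, beside 2.88% and 0.322% of all genes called in either direction, with Acta2 the largest in both. The part of these shifts in the order of the replication factors was not tested.

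Across the 3 cultures together, L122A against EGFP gave 1 called member; of all genes tested 2.88% were called. Pola1 was 2.23-fold higher (log2 fold change 1.16 ± 0.22 SE, edgeR adjusted p = 0.0343) in L122A than in EGFP cells; its values, given above, were higher in L122A than in EGFP cells in all 3 cultures. The call ended when EGFP no-LIF, EGFP RA, L122A no-LIF, L122A RA or any WT library was left out, and under total-count scaling. The members' median was 0.35 and 34 of 36 values were above 0, against a median of 0.01 over all genes. In edgeR 9 members had an unadjusted p below 0.05, as did 18.5% of all genes tested. DESeq2 called 3 members (Gins3, Mcm5 and Pola1), beside 1438 of all 13996 genes tested. WT against EGFP called 0 members in edgeR and 0.322% of all genes. An unadjusted p below 0.05 was reached by 2 members and by 11.9% of all genes, and DESeq2 called 1 member, beside 614 of all genes. The smallest p was that of Pola1, with a log2 fold change of 0.93 ± 0.22 SE (edgeR adjusted p = 0.127). L122A against WT called 0 members in edgeR and 0% of all genes. Here 1 member and 4.39% of all genes had an unadjusted p below 0.05, and DESeq2 called 0 members. The smallest p was that of Gins3, with a log2 fold change of 0.85 ± 0.24 SE (edgeR adjusted p = 0.813). Gins3 was highest in L122A cells in each culture, at 14.7 against 10.3 CPM in WT cells with RA and 19.8 against 9.46 CPM with LIF.

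Many other genes of the S-phase programme and of mitosis, taken from lists that hold no member, were also lower with RA. Of 28 further replication factors (regulators and accessory subunits), 15 fell and 0 rose against LIF, beside 23.8% of all genes called lower; the largest fall was in Esco2, a cohesin acetyltransferase of S phase. Esco2 had 43.96, 32.6 and 19.9 CPM in L122A, WT and EGFP cells with RA, 136, 116 and 58.6 CPM in the same cells without LIF, and 118, 152 and 100.5 CPM with LIF. Esco2 was 4.04-fold lower (log2 fold change -2.01 ± 0.23 SE, edgeR adjusted p = 5.28e-04) with RA than with LIF, and no RA value reached a value without RA. Of 9 genes of deoxynucleotide supply, 6 fell and 0 rose; Dtymk, thymidylate kinase, had 101, 79.4 and 74.8 CPM in L122A, WT and EGFP cells with RA, 529.6, 296 and 237 without LIF, and 364, 457 and 279.9 with LIF, and was 4.32-fold lower (log2 fold change -2.11 ± 0.25 SE, edgeR adjusted p = 5.83e-04). Of 9 genes of chromatin assembly and maintenance methylation, 5 fell and 0 rose, led by Chaf1b, a subunit of chromatin assembly factor 1, 2.39-fold lower (log2 fold change -1.26 ± 0.25 SE, edgeR adjusted p = 0.00468). Of 20 mitosis genes, 11 fell and 0 rose, led by Cenpa, the centromeric histone H3, 3.22-fold lower (log2 fold change -1.69 ± 0.19 SE, edgeR adjusted p = 5.00e-04). The log2 fold change was below 0 for 17 of the 20 and above 0 for 3. Mki67, which was not called, had 317.7 and 237.2 CPM in L122A and WT cells with RA against 118.6 and 111 CPM with LIF. Cenpe, also not called, had 134.5 and 96.96 CPM in the same cells with RA against 65.68 and 57.62 CPM with LIF. In EGFP cells Mki67 and Cenpe were lower with RA than with LIF. Against the culture without LIF, 13 further replication factors (Esco2 most, 3.19-fold), 6 genes of deoxynucleotide supply (Dtymk, 4.0-fold), 5 of chromatin assembly (Chaf1b, 2.67-fold) and 10 mitosis genes (Cenpa, 3.27-fold) fell, beside 21.9% of all genes, and none rose. Against LIF, total-count scaling left 7 further replication factors, 6 genes of deoxynucleotide supply, 1 of chromatin assembly and 6 mitosis genes called lower, with 1 of deoxynucleotide supply and 1 of mitosis called higher. Of all genes tested, 1945 were called lower and 4503 higher under that scaling.

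The E2F and pocket protein list, the transcription factors of this programme and their partners, was mixed: 3 of 13 rose and 2 fell against LIF, beside 24.5% of all genes called higher and 23.8% lower. With total-count scaling 5 rose and none fell, beside 4503 of all genes called higher and 1945 lower. Rb1 had 64.1, 56.4 and 52.3 CPM in L122A, WT and EGFP cells with RA, 15.8, 18.8 and 12.5 CPM in the same cells without LIF, and 17, 10.99 and 16.2 CPM with LIF. All RA values were above all others, with little spread between transfectants. Rb1, the retinoblastoma protein that holds E2F factors inactive, was 3.90-fold higher (log2 fold change 1.97 ± 0.24 SE, edgeR adjusted p = 6.99e-04) with RA than with LIF. Rbl1, the related pocket protein p107, was 1.63-fold lower (log2 fold change -0.71 ± 0.25 SE, edgeR adjusted p = 0.0436), a call that ended under total-count scaling, with no filter and when any of 7 libraries was left out. Against the culture without LIF 2 rose, Rb1 most at 3.67-fold, and E2f4, a repressor E2F, fell 1.64-fold. E2f2, an activating E2F, was 3.76-fold higher (log2 fold change 1.91 ± 0.41 SE, edgeR adjusted p = 0.0472) in L122A than in EGFP cells across cultures, and Cenpa 1.81-fold higher (log2 fold change 0.86 ± 0.18 SE, edgeR adjusted p = 0.0494); both calls ended under RLE factors, under total-count scaling and with most single libraries left out.

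Because 23 of the 36 members fell with RA, the members' promoters were searched for the sequence elements of cell-cycle genes. RefSeq promoter windows of the GRCm38.p6 build, from 250 bases before to 50 bases after each gene's start, were matched for 28 of the 36 members (33 windows, as some genes have several starts) and for all 7 factors under older names; the expression table itself uses build mm9. Letters searched on both strands were TTTCCCGC, TTTCGCGC, TTTGCCGC and TTTGGCGC for E2F, CCAAT for the CCAAT box, TTTGAA and TTCGAA for the cell-cycle homology region (CHR), and GGGCGG for the GC box; a gene counts as holding a motif if any of its windows does. Shown are windows of 2 genes that fell and hold an E2F match (Mcm5, Pole2), of Orc1, which fell most, and of Mcm6, which holds 3 matches and did not pass the test. Capitals mark the E2F matches, and each sequence runs 5′ to 3′ on the strand of the gene.
Mcm5, chr8:75109259-75109558, plus strand: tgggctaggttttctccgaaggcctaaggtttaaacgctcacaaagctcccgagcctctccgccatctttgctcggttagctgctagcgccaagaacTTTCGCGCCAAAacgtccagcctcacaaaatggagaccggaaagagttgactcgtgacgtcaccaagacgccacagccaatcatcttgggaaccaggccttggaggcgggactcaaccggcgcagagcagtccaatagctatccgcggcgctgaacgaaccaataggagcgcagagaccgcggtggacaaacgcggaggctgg
Pole2, chr12:69228141-69228440, minus strand: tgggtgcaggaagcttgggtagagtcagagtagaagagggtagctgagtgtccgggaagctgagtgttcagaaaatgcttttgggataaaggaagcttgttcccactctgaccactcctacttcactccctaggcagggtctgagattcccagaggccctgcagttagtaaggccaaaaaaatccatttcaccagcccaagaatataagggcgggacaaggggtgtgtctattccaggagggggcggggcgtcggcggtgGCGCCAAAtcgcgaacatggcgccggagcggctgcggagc
Orc1, chr4:108579204-108579503, plus strand: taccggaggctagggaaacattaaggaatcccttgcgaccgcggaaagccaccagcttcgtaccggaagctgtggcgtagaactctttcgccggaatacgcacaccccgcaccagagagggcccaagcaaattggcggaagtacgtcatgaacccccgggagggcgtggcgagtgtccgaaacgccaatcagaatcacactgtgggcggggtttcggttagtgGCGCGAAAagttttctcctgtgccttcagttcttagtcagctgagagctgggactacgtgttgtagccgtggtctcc
Mcm6, chr1:128359656-128359955, minus strand: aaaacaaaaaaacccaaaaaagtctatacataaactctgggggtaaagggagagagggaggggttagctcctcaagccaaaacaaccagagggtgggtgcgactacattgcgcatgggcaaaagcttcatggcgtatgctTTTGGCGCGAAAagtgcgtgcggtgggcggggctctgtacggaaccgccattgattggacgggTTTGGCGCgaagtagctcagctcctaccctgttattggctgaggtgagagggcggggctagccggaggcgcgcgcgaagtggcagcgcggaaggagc

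In Mcm5 a pair of overlapping matches on opposite strands begins 153 and 149 bases before the start, and in Mcm6 a like pair begins 110 and 106 bases before it, and another match begins 47 bases before it. The Orc1 match begins 27 bases before the start and the Pole2 match at base 11, with the start as base 1. An E2F match was found in 13 of the 28 members with a window (46.4%), against 704 of 27025 genes in all (2.6%). It was found in 7 of 17 members called lower against LIF and in 6 of 11 members that were not called. CCAAT was found in 19 of the 28 members (67.9%), against 41.1% of all genes, the CHR letters in 6 (21.4%), against 21.7%, and the GC box in 20 (71.4%), against 38.2%. In the mitosis list, E2F letters were found in 1 of 17 genes, CHR letters in 12, CCAAT in 14 (82.4%) and the GC box in 14 (82.4%). Of 23 further replication factors with a window, E2F letters were found in 6 (26.1%) and CHR letters in 4 (17.4%). CCAAT was found in 7 of these 23 (30.4%) and the GC box in 17 (73.9%). Of the 19 E2F matches in member windows, 1 overlapped a match of another motif searched. A match is a run of letters, not a bound site, and binding was not measured here.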

How the data were processed

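Gene expression was measured by RNA sequencing in 9 libraries, 1 for each of 3 transfectants in each of 3 cultures. The deposited gene table gives for each library a raw count of reads per gene and an FPKM value, both made by the authors, per the file headers. Per the submitters' processing notes the tools included TopHat2 2.0.11 and the build was mm9. No source used here gives the counting program, its strand setting or a filter on reads. FPKM equalled the count over feature length and library total within 1% for 100% of genes above 5 FPKM. Columns of the RA and no-LIF cultures bear names as in the sample titles. The other 3 bear a name found in no label and were taken as the LIF culture by elimination. No pair of libraries held identical values, and 0 columns were left unused.

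Counts were tested with edgeR 4.0.16 (limma 3.58.1, R 4.3.3) by quasi-likelihood in an additive model of culture and transfectant with a biological coefficient of variation of 0.325 and 4 residual degrees of freedom. The 13996 genes that reached 1 CPM in 3 or more libraries were tested, with TMM factors between 0.810 and 1.255 and Benjamini-Hochberg adjustment over all of them. CPM are counts scaled by these factors and library totals. Without replicates, a p-value of the additive model asks how regular an effect was across the other factor. No p-value here measures spread between cultures of the same kind. The difference of RA responses used a model of class (L122A and WT, or EGFP) by culture, with 3 residual degrees of freedom and a coefficient of variation of 0.287. EGFP cells have 1 library per culture, so the differences between L122A and WT cells are the only source of spread in that model. Each SE is the size of the log2 fold change divided by the root of its F statistic. Pairs of single libraries were compared without a test, by CPM ratio and its exact Poisson interval (95%). In simulated counts on 13996 genes the additive model recovered 94% of 4-fold and 13% of 2-fold changes for RA against LIF, and the model of the difference recovered 91% of 32-fold and 11% of 4-fold differences. Neither simulation set a culture or transfectant effect beyond the changes put in. The simulation for RA against LIF also changed far fewer genes than were called in the data. The shares therefore do not give the power of either test in the data. Promoter windows come from RefSeq (GRCm38.p6).

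The members, the lists and the tests were chosen with earlier results of these data known. Full statistics are given for up to 3 called factors of each of 8 role groups, those with the largest change, for the factor with the smallest p where none was called, and for the called gene with the largest change each way in each other list (126 of 130 symbols matched). Other members were named after their values were seen. The lists were further replication factors, chromatin assembly, deoxynucleotide supply, E2F and pocket proteins, mitosis, and markers of ES cells, fibroblasts, extraembryonic endoderm, neural cells and RA response. Alternatives were RLE factors, total-count scaling, no filter, DESeq2 1.42.0, only the libraries compared, no second factor, no ribosomal RNA or mitochondrial genes (226), and each library left out; their use on the other lists, on genes named outside the rule, and the sum of ES cell markers without Nanog were added after seeing the data. Ratios and figures used Python 3.11.15, pandas 2.3.3, numpy 2.4.6, scipy 1.17.1 and matplotlib 3.10.9.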

Additional observations from a re-analysis of the deposited data

Results flagged for a closer look

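Rpa1 and Rfc1 moved in opposite directions with RA in the Nanog transfectants and in EGFP cells. Rpa1, the large subunit of replication protein A, was higher with RA than with LIF in both L122A and WT cells and lower in EGFP cells, and the mean log2 ratio of the Nanog transfectants exceeded that of EGFP cells by 1.38. For Rfc1, the large subunit of the clamp loader, the same difference was 0.89. In edgeR's test of the difference of RA responses neither passed, with an adjusted p of 0.331 for Rpa1 and 0.441 for Rfc1; without the filter on low counts Rpa1 passed. Each direction rests on 1 RA and 1 LIF library per transfectant, and markers of other cell states differed between the same RA libraries, whose part in these results was not tested.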

How the results depend on the processing

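The count of members lower with RA against LIF, 23, stayed within 1.5 times under every alternative but total-count scaling, which gave 14, and ranged from 16 (without WT RA) to 25 with a library left out; against the culture without LIF, 24 became 13 under total-count scaling and ranged from 16 (without EGFP no-LIF) to 24. Of 115 named genes and comparisons run, 15 changed direction under some alternative, none of them called by the fit reported. With total-count scaling the log2 fold change against LIF turned to 0.0569 for Mcm6, 0.12 for Cdc45, 0.26 for Gins3 and 0.12 for Rrm1, and against the culture without LIF to 0.0004263 for Orc4, 0.0303 for Mcm4, 0.0822 for Mcm6, 0.0391 for Cdc45, 0.31 for Gins3, 0.31 for Rfc1, 0.0917 for Fen1, 0.31 for Rrm1 and 0.008944 for Rrm2. Rfc1 was at -0.00485 against LIF with only the libraries compared. With a library left out, the range against LIF was -0.27 to 0.003435 for Gins3, -0.20 to 0.27 for Rfc1 and -0.14 to 0.68 for Rpa1, and against the culture without LIF -0.24 to 0.0465 for Gins3, -0.31 to 0.10 for Rfc1 and -0.30 to 0.10 for Rrm1. For WT against EGFP, 0 called members became 1 with DESeq2 and stayed at 0 with any library left out; the cause was not tested. For L122A against EGFP the 1 called member became 0 under total-count scaling, with only the libraries compared and with no second factor, became 3 with DESeq2, and ranged from 0 to 1 with a library left out. For the difference of RA responses 0 became 2 without the filter and stayed at 0 with each of the 7 libraries that could be left out; without EGFP LIF or EGFP RA it could not be fitted. Loss of LIF and L122A against WT gave 0 called members throughout.

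Counts over all genes were less stable where few were called. Against LIF, 6751 genes called with RA became 4473 without WT LIF and 4067 without WT RA, and 6235 against the culture without LIF became 3499 without WT RA. Total-count scaling turned the split with RA to 4503 higher and 1945 lower against LIF, and to 4456 and 1679 against the culture without LIF. Loss of LIF called between 0 and 278 genes, WT against EGFP between 0 and 614, L122A against EGFP between 0 and 1438, L122A against WT between 0 and 51 (the highest of each with DESeq2), and the difference of RA responses between 1 and 684, the last without the filter.

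The additive model already compares cultures within each transfectant; without that term (no second factor) 23 members were lower against LIF and 21 against the culture without LIF. No paired analysis by replicate number was possible because the labels carry none. Limits: without replicate cultures the additive model counts any interaction as error, and Fen1, Pold1 and Gins3 have the fewest counts. The scale is relative, so an equal change in all RNA per cell would not be seen.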
